A study of Homo sapiens with 18 samples.

Results

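The genes described here are the collagen chains and the enzymes and chaperone that process them, followed in DU145 cells treated with GC7. Members were every gene whose symbol has the form of a collagen chain (COL, a number, A, a number) and 20 named processing genes. Of the 15747 genes in the authors' deposited table of cytoplasm and polysomes, 44 were members, 25 chains and 19 enzymes. LOX was the named enzyme without an entry there. The authors' deposited table of whole cells, with 44682 entries, held 64 members, of which 44 were chains and 20 enzymes.

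DU145 is an established epithelial line from a metastatic prostate carcinoma, and these cells were given either 40 µM GC7 or vehicle alone for 24 h. GC7 inhibits deoxyhypusine synthase, so the translation factor eIF5A is left without hypusine, and the study asked how this changes the amount of each mRNA and its loading with ribosomes. RNA was taken from whole cells, from cytoplasm and from heavy polysomes of sucrose gradients, each with and without GC7, which gives 6 groups of 3 libraries and 18 in all. The protocol shared by all groups has a short exposure to emetine, which holds ribosomes on mRNA, just before harvest. The labels do not say whether libraries of a group came from separate cultures, so each p-value rests on differences between libraries that may be technical repeats. The files give comparisons and means per fraction, with no value per library, so depth is unknown and no spread over libraries can be shown beside a level. The tables do not state their numerator. Directions below read the category "UP" as higher with GC7 and carry the whole-cell values with reversed sign, and all of them would flip if the reading were the other way.

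Collagens are trimers of chains built from Gly-X-Y triplets, in which proline often fills X and hydroxyproline Y. Chains are translated into the endoplasmic reticulum, where prolyl and lysyl hydroxylases and galactosyltransferases modify them and the chaperone encoded by SERPINH1 holds the folded helix, and propeptide proteases and lysyl oxidases act on the secreted molecule. Ribosomes slow at prolines in a row, and eIF5A with hypusine is known to help peptide bonds form there, which makes Gly-Pro-Pro repeats a sequence of interest for this factor. In carcinomas most fibrillar collagen comes from stromal fibroblasts, while epithelial cells make basement membrane and transmembrane collagens.

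The cells carried the markers of their label. All 6 epithelial markers were listed, and of 8 fibroblast or stromal markers the authors' deposited table listed 1, VIM, an intermediate filament gene that carcinoma lines can express. DCN, LUM, PDGFRA, PDGFRB, POSTN, FAP and THY1 had no entry, nor did any of 3 endothelial markers. Mean normalized counts, the authors' average over the libraries of a fraction, summed to 29272958 in cytoplasm and 32579359 in polysomes, and the lowest mean listed was 12.1 and 10.1.

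The coding exons of the chains below show adjacent proline codons, among them the Gly-Pro-Pro triplets that separate the chains from the enzymes. Those of SERPINH1 and LOXL4 show no adjacent proline codons. Each exon shown is the fully coding exon of 27 to 130 bases with the most adjacent proline codons in the MANE Select transcript (GENCODE 44, GRCh38). Ties went to the exon with more proline codons. Exons are read on the coding strand, with complete proline codons in capitals. The exons lie at chr7:94400196-94400288 on the plus strand, chr10:104043501-104043581 on the minus strand, chr6:75123330-75123404 on the minus strand, chr21:45999657-45999692 on the plus strand, chr11:75568731-75568829 on the plus strand and chr10:98259391-98259429 on the minus strand. COL1A2 shows the repeat of a fibrillar chain, COL17A1 and COL12A1 are the chains called in polysomes, COL6A1 is a chain with few such triplets, and SERPINH1 and LOXL4 are processing genes called in polysomes.
COL1A2 exon 5: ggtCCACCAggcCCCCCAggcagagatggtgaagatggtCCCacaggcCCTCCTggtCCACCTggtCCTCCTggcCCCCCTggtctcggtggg
COL17A1 exon 35: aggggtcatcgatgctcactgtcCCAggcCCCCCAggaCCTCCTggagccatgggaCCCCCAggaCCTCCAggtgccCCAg
COL12A1 exon 43: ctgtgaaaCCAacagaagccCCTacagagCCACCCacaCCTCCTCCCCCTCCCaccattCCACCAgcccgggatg
COL6A1 exon 27: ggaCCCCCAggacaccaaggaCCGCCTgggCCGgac
SERPINH1 exon 3: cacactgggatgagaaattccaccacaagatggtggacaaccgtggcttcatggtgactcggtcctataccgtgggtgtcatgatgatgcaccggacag
LOXL4 exon 5: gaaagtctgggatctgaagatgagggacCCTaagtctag
The COL1A2 exon codes for 13 prolines and 6 Gly-Pro-Pro triplets, and the COL17A1 exon for 10 prolines and 4 such triplets. The COL12A1 exon holds no Gly-Pro-Pro and a run of 5 prolines, the longest of that protein. The SERPINH1 exon has no proline codon, and the LOXL4 exon has 1. The LOXL4 protein as a whole has 4 Pro-Pro pairs and a longest run of 3 prolines, none of them within a fully coding exon of that length.

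Over whole proteins, the 25 chains had a median of 33 Gly-Pro-Pro triplets, from 4 in COL6A2 to 68 in COL4A5, and the 19 enzymes a median of 0, with at most 2. Of the 12902 measured genes with a coding sequence in the reference, 33 coded for at least 10 Gly-Pro-Pro triplets and 23 of those were chains. All 15 genes with at least 30 were chains. Proline made up a median of 17.6% of residues in the chains, 5.38% in the enzymes and 5.54% over those genes. The product of SERPINH1 holds no adjacent prolines at all. Pro-Pro-Pro did not separate the classes. It was present in 5 of 25 chains, 6 of 19 enzymes and 26.2% of those 12902 genes. The longest proline run of a member, 7, was in LOXL1, an enzyme, and the longest of a chain was 5, in COL12A1. COL1A1, COL1A2, COL3A1, COL5A2 and COL11A2, all fibrillar, had the longest unbroken Gly-X-Y runs, of 338 to 342 triplets. Their genes share an exon unit: 54 bases was the length of 24 of the 50 fully coding exons of COL1A2, of 21 of 49 in COL1A1 and of 24 of 49 in COL3A1. COL12A1, a chain of the FACIT class with short helices at fibril surfaces, had 4 such exons of 63.

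Chains and enzymes differed in level. Per kilobase of transcript the enzymes had a median mean normalized count of 304 in cytoplasm and the chains 14.0, a ratio of 21.7, and in polysomes the ratio was 18.8. All 19 enzymes lay above the median chain in both fractions, while 2 of 25 chains lay above the median enzyme in cytoplasm and 1 in polysomes. Against the median of all genes, 134 per kilobase in cytoplasm, 13 enzymes and 3 chains were higher. The chains together took 0.0231% of all counts in cytoplasm and 0.0152% in polysomes, and the enzymes 0.0963% and 0.0958%. No test was made, since genes are not replicates.

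**Figure D1:**
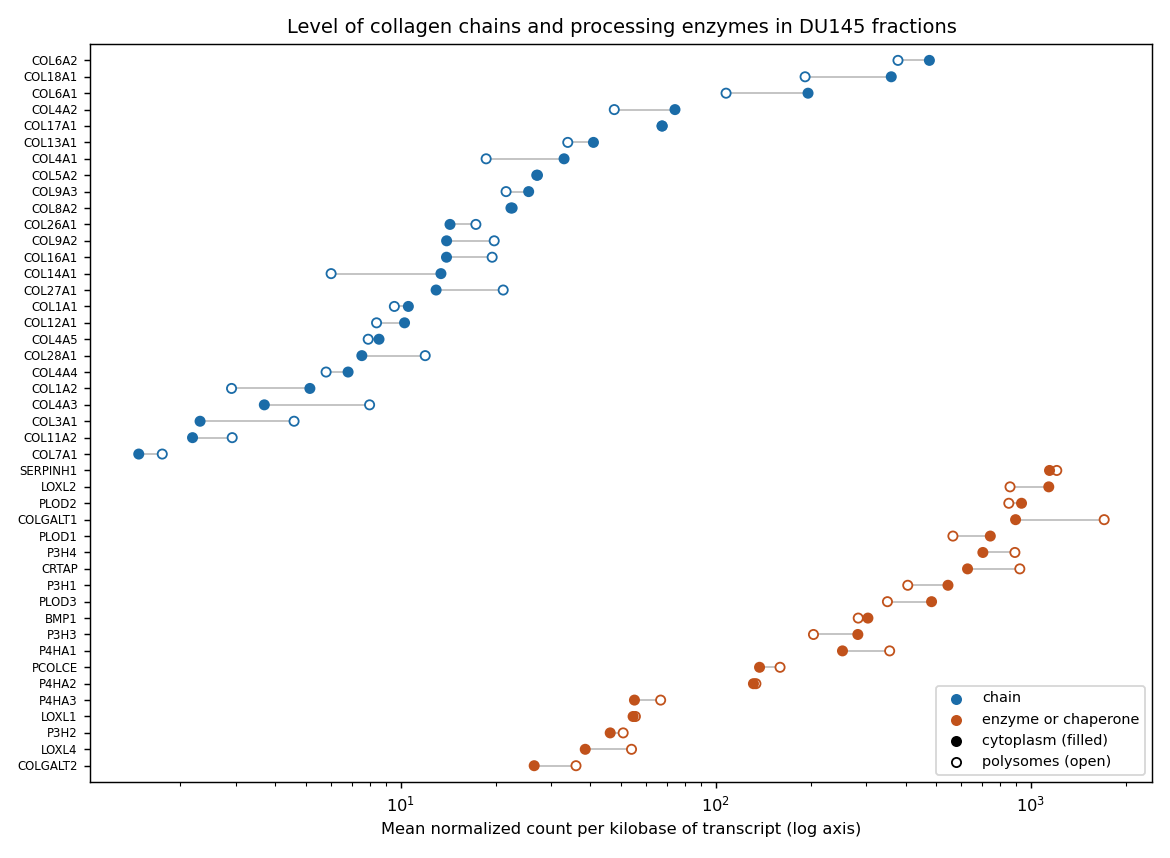
Mean normalized count per kilobase of transcript (log axis) of each of the 25 chains (blue) and 19 enzymes or chaperone (orange), in cytoplasm (filled) and polysomes (open), each point the authors' mean over the libraries of that fraction. The enzymes centre at 304 per kilobase in cytoplasm and the chains at 14.0, and COL6A2, COL18A1 and COL6A1 stand above the other chains.

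The 3 most abundant chains in both fractions were COL6A2, COL18A1 and COL6A1. By the authors' deposited means divided by transcript length, COL6A2, of the beaded filaments that surround cells, stood at 476 per kilobase in cytoplasm and 379 in polysomes. COL18A1, the basement membrane collagen that is the source of endostatin, stood at 360 and 192, and COL6A1, the partner chain of COL6A2, at 196 and 108. COL4A2, a chain of the main basement membrane network, came next in cytoplasm at 74.2 and stood at 47.6 in polysomes, below COL17A1, which had 67.5 and 67.6. The partner of COL4A2, COL4A1, stood at 33.0 and 18.7, the latter being the median chain of polysomes. COL6A3, the remaining chain of the classical type VI trimer, had no entry in the fractions. The chains of type I collagen were low, at 10.6 for COL1A1 and 5.15 for COL1A2 in cytoplasm, and COL3A1 stood at 2.31. COL1A2 and COL3A1, at mean counts of 26.1 and 12.7, belong to 8 chains under a mean count of 50 in cytoplasm, where a fold change carries little weight. COL4A1 with COL4A2 and COL4A3 with COL4A4 lie head to head on the genome, and antisense genes overlap some chains. Whether the counting used strand is not given in the sources used here.

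Among the enzymes, SERPINH1 stood at 1146 per kilobase in cytoplasm and 1208 in polysomes, by the authors' deposited means over transcript length. LOXL2, a lysyl oxidase that starts cross-links, came next in cytoplasm at 1140, with 859 in polysomes, and then PLOD2, the lysyl hydroxylase of the telopeptides, at 934 and 851. COLGALT1, which adds galactose to hydroxylysine, stood at 894 in cytoplasm and 1708 in polysomes, the highest enzyme there. CRTAP and P3H4, grouped here with the prolyl 3-hydroxylases, also lay above LOXL2 in polysomes, at 922 and 890. The lowest enzymes were COLGALT2 at 26.5, LOXL4 at 38.5 and P3H2 at 46.2 per kilobase in cytoplasm. No enzyme was under a mean count of 100.

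The level in polysomes over that in cytoplasm was set against the median gene, since each fraction was normalized separately. On this log2 scale the chains had a median of -0.62, with 20 of 25 below the median gene, and the enzymes -0.42, with 17 of 19 below. The lowest chains were COL14A1 at -1.66, COL18A1 at -1.41 and COL6A1 at -1.37, and COLGALT1 was the highest enzyme at 0.43. These ratios pool GC7 and vehicle libraries and have no error.

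In polysomes, 5 members rose with GC7 and none fell: the chaperone gene SERPINH1, the lysyl oxidases LOXL4 and LOXL2, and the chains COL17A1 and COL12A1. Over all genes, 11.1% were called in either direction and 5.61% were called higher, by a deposited adjusted p under 0.05. The 5 of 44 members are 11.4%, near the share of all genes called in either direction, so the number of calls does not set the members apart. As all 5 rose, the share of members called higher is also 11.4%, above the 5.61% of all genes. Whether that excess is more than so few genes would give was not tested. The deposited fold changes of both fractions are shrunken toward 0. Of 6 epithelial markers, KRT7 at 1.00 and EPCAM at 0.59 also rose in polysomes in the authors' deposited table, where the 6 had a median of 0.36, and VIM stood at 0.35 without a call. The part of such markers in the members' values was not tested, and in bulk RNA fewer cells of a kind and less RNA per cell cannot be told apart. None of the members carried the authors' category for a change, which also asks for a log2 fold change over 1 in size.

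SERPINH1 (chromosome 11, 75562056 to 75572783) had a mean normalized count of 2358 for cytoplasm and 2486 for polysomes in the authors' deposited table. Its polysomal log2 fold change was 0.91 (SE 0.19, deposited adjusted p = 1.56e-05) in the authors' deposited table, against 0.13 (SE 0.16, deposited adjusted p = 0.608) in cytoplasm. In whole cells the authors' deposited table, sign reversed, put it at -0.01 (unadjusted p = 0.984). The call was thus in polysomes and the value in whole cells was close to 0.

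LOXL4 and LOXL2 are copper-dependent amine oxidases that turn lysines of collagen and elastin into aldehydes. LOXL4 (chromosome 10, 98247690 to 98268194) stood at 0.95 in polysomes (SE 0.24, deposited adjusted p = 0.00017) and at 0.80 in cytoplasm (SE 0.24, deposited adjusted p = 0.00392) in the authors' deposited table. LOXL2 stood at 0.66 in polysomes (SE 0.24, deposited adjusted p = 0.00715) and at 0.60 in cytoplasm (SE 0.27, deposited adjusted p = 0.0486) in the authors' deposited table. Both rose in both fractions. LOXL1, the other lysyl oxidase among the members, was at -0.13 and -0.01 in cytoplasm and polysomes by the authors' deposited table and was not called. In whole cells the authors' deposited values, sign reversed, were 0.18 for LOXL4 (unadjusted p = 0.641) and 0.51 for LOXL2 (unadjusted p = 0.402).

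COL17A1, the transmembrane collagen of hemidesmosomes that anchors epithelial cells (chromosome 10, 104031286 to 104085880), had means of 379 in each fraction in the authors' deposited table. It rose in polysomes, at 0.79 (SE 0.22, deposited adjusted p = 0.000742), and stood at 0.08 in cytoplasm (SE 0.19, deposited adjusted p = 0.748), by the authors' deposited table. COL12A1 (chromosome 6, 75084326 to 75206267) rose in polysomes by the authors' deposited table, at 0.83 (SE 0.29, deposited adjusted p = 0.00563). Its cytoplasmic value in the authors' deposited table was 0.63 (SE 0.35), which missed the threshold (deposited adjusted p = 0.0766). COL12A1 had a mean count of 121 in cytoplasm and 98.3 in polysomes, so it is a low transcript of this line.

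**Figure D2:**
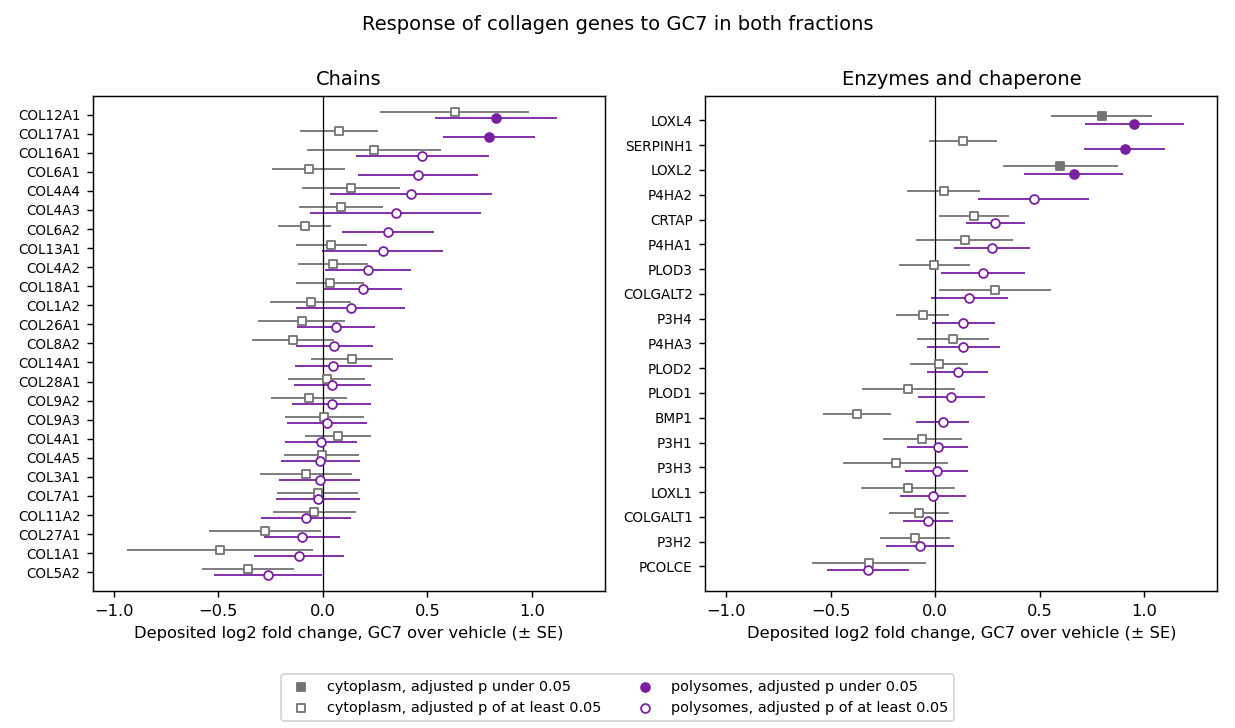
Deposited (shrunken) log2 fold changes, GC7 over vehicle, with their SE, for 25 chains (left) and 19 enzymes or chaperone (right), in cytoplasm (grey squares) and polysomes (purple circles); filled symbols have a deposited adjusted p under 0.05. The filled symbols are 5 in polysomes and 2 in cytoplasm, all to the right of 0.

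In cytoplasm, the 2 lysyl oxidases just given were the members called, 4.55% of 44, beside 4.24% of all genes called in either direction and 2.29% called higher. No member fell. The chains with the lowest cytoplasmic values among those with a mean count of at least 50 were COL1A1, at -0.49 (SE 0.45, deposited adjusted p = 0.158), and COL5A2, at -0.36 (SE 0.22, deposited adjusted p = 0.17), in the authors' deposited table. The lowest enzymes in the authors' deposited table were BMP1, the protease that removes C-propeptides, at -0.37 (SE 0.16, deposited adjusted p = 0.0715), and its enhancer PCOLCE, at -0.32 (SE 0.27, deposited adjusted p = 0.261). COL16A1, the second highest of those chains in cytoplasm, stood at 0.24 (SE 0.32, deposited adjusted p = 0.332) in the authors' deposited table. In polysomes COL5A2 was at -0.26, COL1A1 at -0.11, PCOLCE at -0.32 and P3H2 at -0.07 in the authors' deposited table, and none of these passed the test.

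By role, no basement membrane network chain was called in either fraction, and the 5 had a polysomal median of 0.22 in the authors' deposited table. The 6 fibrillar chains were all below 0 in cytoplasm, with a median of -0.18 and none called, and 1 of 6 was above 0 in polysomes, by the authors' deposited table. COL6A1 and COL6A2 were just under 0 in cytoplasm and at polysomal values of 0.46 and 0.31 in the authors' deposited table, with deposited adjusted p = 0.0781 and 0.159. None of the 3 prolyl 4-hydroxylase subunits was called, and P4HA2 had the highest polysomal value of them, 0.47 (SE 0.26, deposited adjusted p = 0.0616) in the authors' deposited table. Among the 5 members grouped as prolyl 3-hydroxylases and related proteins, none was called. CRTAP had the highest polysomal value of them, 0.29 (SE 0.14, deposited adjusted p = 0.0848), in the authors' deposited table. The 3 lysyl hydroxylases had polysomal values of 0.08 to 0.23 in the authors' deposited table, with no call.

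As classes, chains and enzymes had cytoplasmic medians of -0.0058 and -0.0041 in the authors' deposited table, beside -0.0036 over all genes. In polysomes the medians were 0.05 for chains and 0.13 for enzymes, beside -0.0049 over all genes, by the authors' deposited table. The polysomal value was above 0 for 32 of 44 members, 17 of 25 chains and 15 of 19 enzymes, and for 7641 of 15747 genes. The gap between the class medians, 0.08, came to 0.03 with unshrunken values and to 0.01 with members of at least 50 mean counts in polysomes. With at least 50 in cytoplasm it turned to -0.06, so the classes had no stable order.

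The polysomal response was then set against the cytoplasmic one, as the difference of their unshrunken log2 fold changes, which asks whether ribosome loading changed beyond the amount of mRNA. Most members lay above 0 in this difference, and none passed adjustment. It was above 0 in 38 of 44 members, 86.4%, and in 51.0% of all genes tested, with medians of 0.24 over chains, 0.15 over enzymes and 0.01 over all genes. The shift was not limited to collagen genes: it was above 0 in 8 of 8 measured cell type markers, from 0.20 in CDH1 to 0.82 in KRT18 with a median of 0.64. In the 55 other genes of collagen production, breakdown and sensing it was above 0 in 26, with a median of -0.02. With Benjamini-Hochberg adjustment over 15669 genes, 0 members and 0 genes passed (0% of all genes), by a normal test of the difference. At an unadjusted p under 0.05 there were 5 members, 11.4%, all above 0, beside 2.14% of all genes, of which 171 were above 0 and 164 below. That 2.14% is under the 5% of uniform p-values. The test takes the errors of both fractions as independent, which was not tested.

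Those 5 members were SERPINH1, COL6A1, COL6A2, COL1A2 and BMP1. SERPINH1 had a difference of 0.73 (SE 0.28, 95% interval 0.19 to 1.27), from unshrunken values of 0.98 in polysomes and 0.25 in cytoplasm. COL6A1 had 0.87 (SE 0.39, interval 0.11 to 1.63) and COL6A2 0.60 (SE 0.27, interval 0.08 to 1.13), each from a polysomal value above 0 and a cytoplasmic value below it. BMP1 had 0.51 (SE 0.22, interval 0.08 to 0.95), from -0.46 in cytoplasm and 0.05 in polysomes. COL1A2 had 1.70 (SE 0.84, interval 0.05 to 3.35) at mean counts of 26.1 and 14.7. For the lysyl oxidases the difference was small, 0.02 for LOXL2 (interval -0.63 to 0.67) and 0.14 for LOXL4 (interval -0.49 to 0.77). For COL17A1 it was 0.60 (interval -0.19 to 1.39), and for COL12A1 0.11 (interval -0.69 to 0.91).

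**Figure D3:**
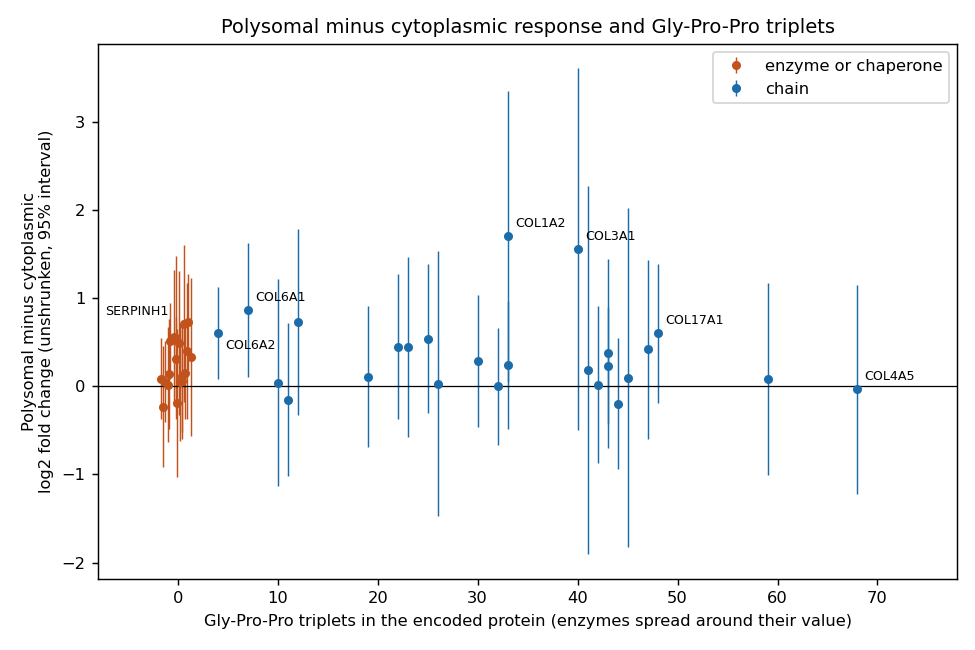
Difference of the unshrunken log2 fold changes, polysomes minus cytoplasm, with its 95% interval, against the number of Gly-Pro-Pro triplets in the encoded protein, for 25 chains (blue) and 19 enzymes or chaperone (orange, spread sideways around values of 0 to 2). The chains with an interval above 0 are COL6A2, COL6A1 and COL1A2, with 4, 7 and 33 triplets, and COL4A5, with 68, sits at -0.03 with an interval from -1.22 to 1.15.

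Across the chains, the difference did not follow the number of proline motifs closely. COL4A5, with 68 Gly-Pro-Pro triplets, had a difference of -0.03 (interval -1.22 to 1.15) and COL4A4, with 59, of 0.08 (interval -1.01 to 1.17). For COL17A1, with 48, the difference was 0.60 (interval -0.19 to 1.39). Adjacent prolines and the difference had Pearson's r = -0.006 and Spearman's rho = -0.08 over the 44 members, and r = -0.23 and rho = -0.32 over the 25 chains. Per residue these were r = -0.02 and rho = -0.05 over the chains, and coding length had rho = -0.48 with the difference. Over 12883 genes, rho with the difference was 0.12 for adjacent prolines and 0.14 for coding length. These are correlations across genes of the same libraries, which are not independent replicates, and COL3A1, COL4A3, COL7A1 and COL11A2, with 40 to 45 triplets, were under a mean count of 50 in cytoplasm. The intervals of single chains span more than 1 log2 unit, so small changes of a chain could go undetected at this precision. The narrowest, of COL6A2, ran from 0.08 to 1.13 around a difference of 0.60.

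In whole cells no member was called. After adjusting the p-values of all 44682 entries by Benjamini-Hochberg, 0 passed (0% of all genes), and the smallest adjusted p of a member was 0.953. At an unadjusted p under 0.05 there were 2 members of 64, 3.12%, beside 2.99% of all genes. These were COL8A2, of the short-chain network collagens, at -3.33, and COL21A1, a FACIT chain, at -1.60, in the authors' deposited table once the sign was turned. Their deposited unadjusted p-values were 0.00726 and 0.0346 in the authors' deposited table. COL8A2 stood at -0.14 and 0.05 in cytoplasm and polysomes by the authors' deposited table, without a call, and COL21A1 had no entry there. Chains had a whole-cell median of -0.20 over 44, enzymes 0.01 over 20, and all entries with reads -0.0055. The 19 chains and LOX that had an entry in whole cells alone had values from -1.60 to 1.41, and 2 of those chains, COL11A1 and COL22A1, had the shared value of genes without reads.

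**Figure D4:**
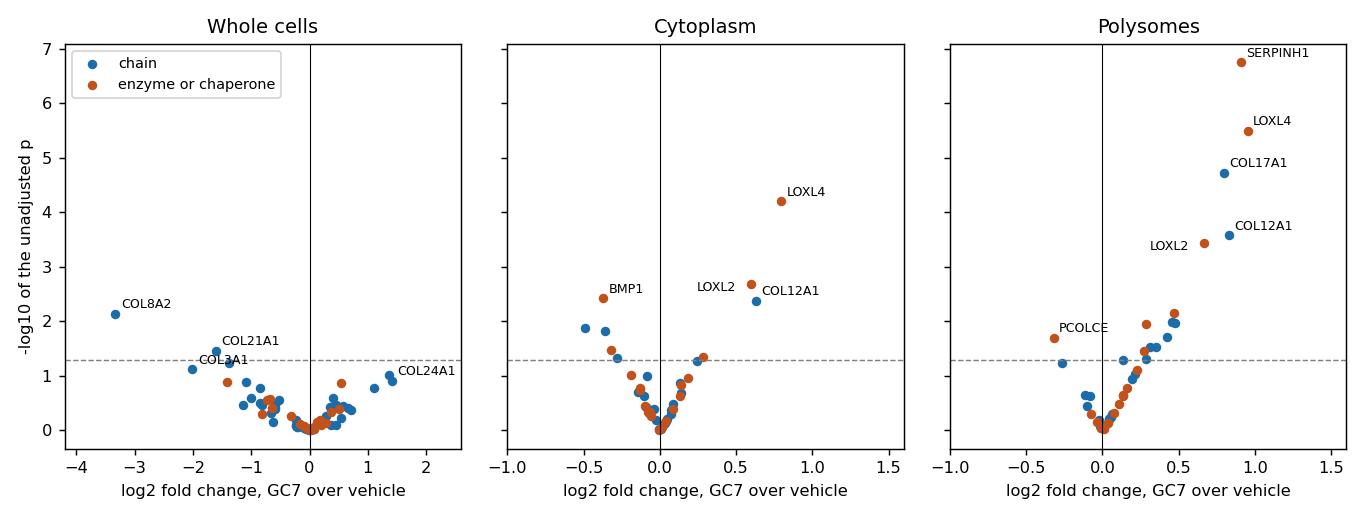
Log2 fold change, GC7 over vehicle, against -log10 of the unadjusted p in whole cells, cytoplasm and polysomes, for chains (blue) and enzymes or chaperone (orange). The dashed line is an unadjusted p of 0.05. The whole-cell axis covers a wider range, and the values of the fractions are the deposited, shrunken ones. Whole-cell points above the line are COL8A2 and COL21A1, both left of 0, and polysomal points above it are 14 to the right and 1, PCOLCE, to the left.

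The promoter of SERPINH1 held a heat shock element, the site of the heat shock factor HSF1, searched on both strands as the units GAA, TTC and GAA with any 2 bases between them. It is shown because SERPINH1 is the member with the smallest adjusted p, at chr11:75562169.0-75562198.0 on the plus strand of the RefSeq promoter (GRCh38.p14), with the match to the minus strand in capitals.
SERPINH1 promoter: ttccaactTTCCAGAAGTTTCtcgggacgg
The windows ran from 250 bases before to 50 after each start. Of 38 member windows 1 held this element, beside 0.490% of 35116 windows and 0.372% of those of measured genes, and a match is a description of letters, not a bound site. The ATF4 composite element TGATGNAA was in 0 of 38 member windows, 3.62% of all and 2.02% of those of measured genes. The hypoxia core ACGTG was in 8 of 38 windows, 21.4% of all and 25.1% of those of measured genes. The 8 windows belong to 7 members: SERPINH1, COL4A3, COL11A2, COL12A1, PLOD2, P3H2 and P4HA1. The windows of SERPINH1 overlap and share the same site, so that site is counted in both.

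Of 69 names listed for other genes of collagen production, breakdown and sensing, 55 were measured. SC65, a listed name without an entry, is an older symbol of P3H4, which is a member. In cytoplasm 4 rose and 0 fell, which is 7.27% called beside 4.24% of all genes, and in polysomes 7 rose and 2 fell, 16.4% beside 11.1%. The lists within it are small and were not tested as lists. Among folding genes, 1 of 6 was called: FKBP10, a prolyl isomerase that works with lysyl hydroxylases on procollagen, at 0.58 in polysomes (SE 0.19, deposited adjusted p = 0.00498) in the authors' deposited table. P4HB, the partner of the prolyl 4-hydroxylase subunits, and PPIB, the isomerase of the prolyl 3-hydroxylase complex, had polysomal values of 0.17 and -0.0047 in the authors' deposited table, with no call. Of 10 export genes, MIA2, a cargo factor for large secretory loads, stood at 0.76 in cytoplasm and 0.63 in polysomes (deposited adjusted p = 0.00019 and 0.000111) in the authors' deposited table. KLHL12, the ubiquitin ligase adaptor for large COPII carriers, stood at 0.49 and 0.42 (deposited adjusted p = 0.0483 and 0.011), by the authors' deposited table.

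Among 6 breakdown genes, interstitial collagenase MMP1 rose most, at 1.66 in cytoplasm and 2.19 in polysomes (deposited adjusted p = 5.65e-06 and 1.8e-06) in the authors' deposited table. MMP14, a membrane collagenase, rose in polysomes, at 0.62 (deposited adjusted p = 0.019), and CTSK, a lysosomal collagenase, fell there, at -0.45 (deposited adjusted p = 0.0256), by the authors' deposited table. Of 5 receptors, ITGB1, the shared beta chain of collagen-binding integrins, rose in polysomes, at 0.42 (deposited adjusted p = 0.0481), by the authors' deposited table. SHMT2, a mitochondrial source of glycine, rose in both fractions, at 0.39 and 0.54 (deposited adjusted p = 0.0406 and 0.00451), and was 1 of 8 supply genes called, by the authors' deposited table. Of 15 regulators, ATF4 was called, lower in polysomes at -0.37 (deposited adjusted p = 0.02) in the authors' deposited table. None of the 5 measured propeptide and cross-link enzymes outside the rule, LOXL3 among them, was called in either fraction.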

How the data were processed

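Per the labels, DU145 RNA of whole cells, cytoplasm and heavy polysomes was sequenced with GC7 and with vehicle, 3 libraries per group. STAR 2.7.8a, Salmon 1.4.0 and GRCh38 are named in the submitters' processing notes, with roles not given in the sources used here. Per the file headers, the deposited tables give a log fold change and p-value per gene in whole cells, and in each fraction, beside a mean normalized count, the log2 fold change with SE and the p-value before and after adjustment. The base of the whole-cell values was read as log2 from the deposited values. The whole-cell sign was reversed because its Spearman correlation with polysomes as deposited was -0.374 over 14099 shared genes.

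The members and lists were chosen with earlier results of these data known. Deposited fraction fold changes are shrunken: a Cauchy prior (scale 0.195 in cytoplasm, 0.205 in polysomes) matched the deposited p-values, with z within 0.1 for 97.4% and 99.5% of genes. Unshrunken values were computed from it, except for genes whose z was off by over 0.5. The difference of fractions had a normal test with Benjamini-Hochberg adjustment. In a simulation that kept the SE of each of 15669 genes, 83.0% of changes of 2 and 100.0% of changes of 4 log2 units were called in that difference, and 13 of 15469 unchanged genes, with errors drawn independently. Smaller changes were not simulated, while the differences of the members ran from -0.23 to 1.70, so the simulation does not cover their sizes. Planned tests on counts per library could not be run on these tables.

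Named genes were members called in a fraction or the difference, members at an unadjusted p under 0.05 in whole cells, the 4 most abundant chains and enzymes per kilobase, and the 2 chains and 2 enzymes with the largest fold change each way at a mean count of at least 50. Other members are named where a sentence is about their role. The 5 members at an unadjusted p under 0.05 in the difference, and the values of COL4A4 and COL4A5, were chosen after their values were seen. Of other collagen genes, those called were named. Lengths, exons and coding features came from GENCODE 44 MANE Select transcripts, in place of a planned protein table not used here, for all 44 members. Promoters came from RefSeq. Python 3.11.15, pandas 2.3.3 and scipy 1.17.1 were used.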

Additional observations from a re-analysis of the deposited data

How the results depend on the processing

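Of 45 alternatives 30 kept the side of the threshold, or a count within 1.5 times, among them 14 of 14 adjusted p-values of single called members. Those 14 only adjust the same deposited p-values again, so they had little room to change. Level ratios, gaps of medians and the correlation were listed as moved or reversed whatever their size, so they could not count among the 30. Calls in cytoplasm went from 2 to 1 at an adjusted p under 0.01, to 4 at 0.10 and to 0 with a log2 fold change over 1 asked for as well. Calls in polysomes went from 5 to 9 at 0.10 and to 0 with that fold change. Whole-cell members at an unadjusted p under 0.05 went from 2 to 1 at 0.01 and to 5 at 0.10. These follow from the thresholds. With deposited fold changes and SE, members at an unadjusted p under 0.05 in the difference of fractions went from 5 to 3, and 1 gene of all passed adjustment, which was no member. The level ratio of enzymes over chains, 21.7, was 22.4 per coding length, 14.4 without division by length and 18.8 in polysomes. The gap of their polysomal medians, 0.081, was 0.027 unshrunken, 0.007 at a mean count of at least 50 in polysomes and -0.056 at that count in cytoplasm, an alternative chosen after seeing the data. The rank correlation of adjacent prolines, -0.077, was -0.186 with the polysomal fold change alone. No paired analysis was possible because the tables hold no values per library. Leaving out each library and the count tools edgeR and DESeq2 were not run for that reason. Depth per library is unknown, and 8 chains under a mean count of 50 in cytoplasm limit what the chains can show.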

Other observations

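Gly-Pro-Pro repeats were not restricted to collagen. Of the 33 measured genes that code for at least 10 such triplets, 10 were no chain: the salivary proline-rich protein genes PRB3 and PRH1, the RNA processing genes CPSF6, WDR33, KHSRP and WBP11, and EMID1, NBPF20, PRR12 and PRRC2A. WDR33, a subunit of the polyadenylation factor CPSF with 23 triplets, was the only one of these 10 called in polysomes, at 0.36 (deposited adjusted p = 0.0348) in the authors' deposited table. PRB3, also with 23, stood at -0.09 in polysomes in the authors' deposited table. Their polysomal minus cytoplasmic differences ran from -0.67 (SE 0.39) in PRH1 to 0.81 (SE 0.81) in NBPF20.

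Among the 19 enzymes, those with a larger share of proline had lower unshrunken polysomal values, with Pearson's r = -0.66 and Spearman's rho = -0.70. In cytoplasm r was -0.56 and rho -0.60, and for the difference of the fractions r was 0.02 and rho 0.04. Over 12898 genes the polysomal rho was -0.02. This relation was picked after seeing 15 correlations among the enzymes, 15 among the chains and 15 among all members, and it is a description across genes of shared libraries.

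The whole-cell table also lists 6 numbered copies of a chain symbol, all of COL11A2, which the naming rule does not take as members.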
